A study of Homo sapiens with 5 samples.

Results

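Rb binding at the MYC locus and at the genes of the MYC network was described from CUT&RUN, in which an antibody brings a nuclease to the protein of interest on chromatin and the DNA cut loose around it is sequenced. All libraries came from ZR-75-1, a breast cancer cell line that expresses the oestrogen receptor, in the form labelled Parent, and the labels name no engineered change in any group. They received either DMSO or abemaciclib at 500 nM for 4 days, the latter a drug that blocks the kinases CDK4 and CDK6. Each treatment had 2 Rb libraries, and DMSO also had 1 library made with IgG2a, a negative-control antibody. Each of the 5 libraries came with its own peak list. According to the study the replicates were separate cultures of this line, each with its own profiling reaction.

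The members were 10 genes of the 62700 annotated in GENCODE 44, chosen by name with earlier results of these data in view: MYC, PVT1, MYCN, MYCL, MAX, MXD1, MXD3, MXD4, MNT and MGA. For each gene, Rb peaks were taken that overlapped a promoter, here 2000 bp upstream to 500 bp downstream of any annotated transcription start site (TSS), that lay in the gene body, or that had it as the nearest protein-coding gene. For MYC and PVT1, all peaks within 1 Mb of the MYC TSS were added. These peaks fell into 22 of the 15036 regions obtained by merging overlapping peaks of the 4 Rb libraries. A region was called gained when both abemaciclib libraries, and no DMSO library, had a peak in it, shared when it held a peak in all 4, and lost in the reverse of gained. Rb peaks do not mark a cell type, so the cell line label could not be checked here.

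MYC is a transcription factor that drives growth and ribosome production, and it binds DNA at E-boxes only as a heterodimer with MAX. MAX also pairs with MXD1, MXD3, MXD4, MNT and MGA, which occupy E-boxes without activating them: the MXD proteins and MNT recruit the SIN3 corepressor, and MGA belongs to a variant Polycomb complex. MYCN and MYCL are the paralogues of MYC, and PVT1 is a long non-coding RNA (lncRNA) gene just downstream of it. Rb, when CDK4 and CDK6 leave it unphosphorylated, binds E2F factors at the promoters of their target genes. In hormone receptor-positive breast cancer cells MYC is an oestrogen-responsive gene, and its promoter is a classical E2F target.

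The Rb lists of DMSO replicates 1 and 2 were 1438 and 2582 peaks long. Those of abemaciclib replicates 1 and 2 were 13960 and 12234 peaks long, and the IgG2a list had 589. Read numbers were not part of the lists. Those implied by the peak statistics were 12.3 and 13.6 M fragments in the DMSO libraries and 9.73 and 7.69 M in the abemaciclib libraries. They rest on each library's genome background pileup, with the least peak width of its list taken as the fragment length. These widths were 143 and 134 bp in DMSO and 182 and 183 bp after abemaciclib. The background pileups were 0.649 and 0.677 in DMSO and 0.656 and 0.521 after abemaciclib. On this estimate the longer lists came from the libraries with fewer implied fragments. Each peak carries a fold enrichment at its summit over local background and a Poisson −log10 p, both of which depend on the depth of its library, and a rank by −log10 p within its list. To set libraries side by side, the whole-number fragment pileup implied at the summit was divided by the genome background pileup of the same library, and this quantity is called the height. The least height called was 9.24 and 8.86 in the DMSO libraries and 7.62 and 9.59 in the abemaciclib libraries, each in replicate order. A height is relative to the library's own background, and in a population of cells it cannot tell more Rb per cell from more cells with bound Rb. With 2 libraries against 2, the smallest two-sided p of an exact permutation test is 0.333, so the values below are descriptions without a test.

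Rb was found at the promoters of MYC, MXD3 and MXD4 in all 4 libraries, and after abemaciclib its peaks there were taller and wider. At MYCN, MYCL, MXD1, MNT and MGA, both abemaciclib libraries had a promoter peak and the DMSO libraries had none. MAX and PVT1 had a promoter peak in 1 abemaciclib library each. No member lost a region, and IgG2a had 0 peaks in the members' regions. The IgG2a library came from DMSO cells and IgG was the control in calling Rb peaks, so this is not an independent check.

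Counted over the 10 genes, 3 had a promoter peak in each DMSO library and 9 in each abemaciclib library. Among the 9 protein-coding members the counts were 3 in each DMSO library, 9 in abemaciclib replicate 1 and 8 in abemaciclib replicate 2. The corresponding shares of all 19970 protein-coding genes were 7.97% and 12.6% in DMSO and 58.0% and 54.0% after abemaciclib. A gained promoter region was present at 6 of the 10 genes, namely MYC, MYCN, MYCL, MXD1, MNT and MGA, against 40.1% of all protein-coding genes and 12.6% of lncRNA genes. A shared promoter region was present at 3, against 6.49% of protein-coding genes. MYC was in both counts. Of the 22 regions, 10 were gained, 3 shared, 0 lost and 9 of another pattern, and over all 15036 regions the numbers were 8625, 1105, 8 and 5298.

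**Figure D1:**
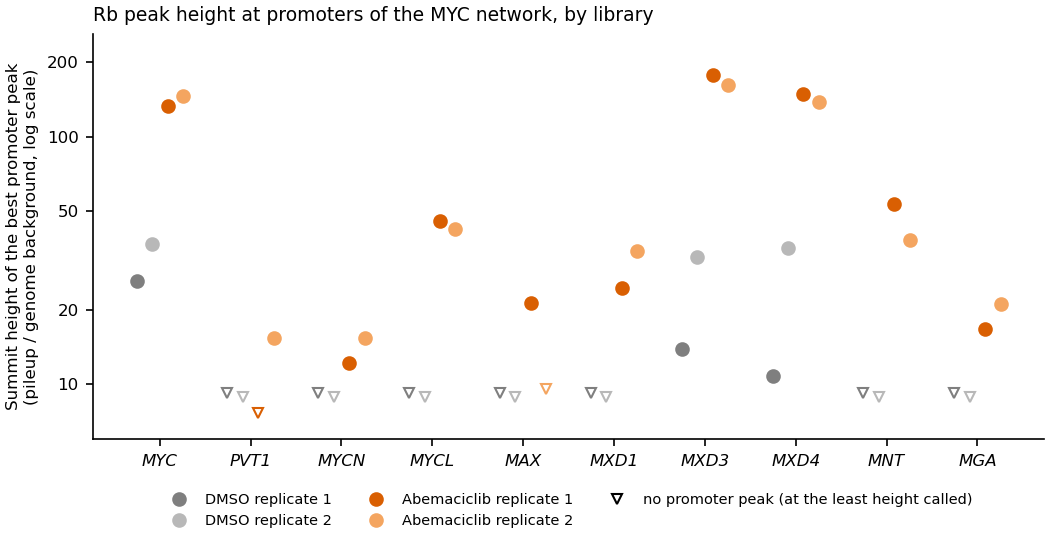
Summit height of the best promoter peak (pileup divided by genome background, log axis) for each of the 10 genes in the 4 Rb libraries; each filled point is 1 library, and an open triangle marks a library with no promoter peak, drawn at the least height called there. MYC, MXD3 and MXD4 have 4 filled points with both abemaciclib points at 133 or above, while the other genes have no filled DMSO point and stay at 53.4 or below.

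At MYC the shared region spanned chr8:127735079-127736647 (GRCh38) around the canonical TSS at 127736231. The peak summits lay 242 and 257 bp upstream of that TSS in the DMSO libraries and 177 and 161 bp upstream after abemaciclib, within exons of longer MYC transcripts. All 4 summits therefore fell within a short stretch just upstream of the main start site.

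The MYC promoter peak had a fold of 9.06 and a −log10 p of 16.3 in DMSO replicate 1, where it ranked 258 of 1438. In DMSO replicate 2 its fold was 12.8, its −log10 p 26.7 and its rank 164 of 2582. It was thus among the stronger peaks of both DMSO lists, at 17.9% and 6.35% of the way down them. In abemaciclib replicate 1 the fold was 44.2, the −log10 p 135 and the rank 878 of 13960, and in abemaciclib replicate 2 they were 43.2, 122 and 644 of 12234. The peak stood 6.29% and 5.26% of the way down these longer lists, and a share of the way down is not comparable between lists of such different lengths.

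In height, the MYC promoter peak measured 26.2 and 36.9 in DMSO and 133 and 146 after abemaciclib. The means were 31.6 ± 7.60 and 139 ± 9.29 (SD, n = 2 each), a ratio of 4.41, with 3.59 and 5.57 as the lowest and highest ratios between single libraries. The peak was 261 and 264 bp wide in DMSO and 1569 and 1507 bp wide after abemaciclib. Across the 1041 shared promoter regions the median ratio was 7.31, with quartiles of 5.97 and 8.83, and 4.51% of them had a lower ratio than MYC. The MYC ratio thus lay in the low tail of the shared promoter regions, beside the highest DMSO mean of the 3 shared members.

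A gained region lay inside MYC at chr8:127737599-127738706, in intron 1 of the canonical transcript, where it also overlapped the TSS of a shorter MYC transcript and the promoter of CASC11, an antisense lncRNA gene. Its summits were 1585 and 1805 bp downstream of the canonical TSS in abemaciclib replicates 1 and 2. Its fold was 8.39 and 7.70, its −log10 p 14.4 and 12.2, and its rank 8450 and 8054. The height was 22.9 and 23.02, so the replicates gave nearly the same value, well below that at the main promoter peak. A further peak, in abemaciclib replicate 1 alone, had its summit 2224 bp upstream of the canonical TSS, a fold of 3.68 and rank 13162. It lay within the promoter window of the longest MYC transcript and in part within that of the canonical TSS. Because the CUT&RUN fragments carry no strand, Rb at these places cannot be assigned to MYC or to CASC11. The same holds for the shared region at the MYC promoter, which also overlapped a promoter window of CASC11.

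The rest of the MYC locus held few Rb peaks. In the 2 Mb from chr8:126736231 to 128736231 there were 6 regions, of which 2 were gained, 1 shared and 3 seen in 1 library. The window held 1 peak in each DMSO library, 5 in abemaciclib replicate 1, 4 in abemaciclib replicate 2 and 0 in IgG2a. The bases covered were 0.261 and 0.264 kb in DMSO against 4.18 and 3.01 kb after abemaciclib. The same window around a protein-coding gene held a median of 16 regions and 9 gained regions, and 17.2% of protein-coding genes had as few regions as MYC and 10.3% as few gained regions. The MYC window is poor in genes, since 2 of its 29 annotated genes, MYC and POU5F1B, are protein-coding.

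The farthest region from the MYC TSS within the window lay 134 kb downstream, in PVT1. A lone peak with its summit 67602 bp upstream of the MYC TSS, in abemaciclib replicate 1, had a fold of 5.09 and rank 11492. The promoters of PCAT1, CASC8, CASC19 and CCAT2, lncRNA genes of the upstream gene desert, held no region within the window. Just outside it, a gained region at −1.18 Mb from the MYC TSS covered the shared promoter of LRATD2 and PCAT1.

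**Figure D2:**
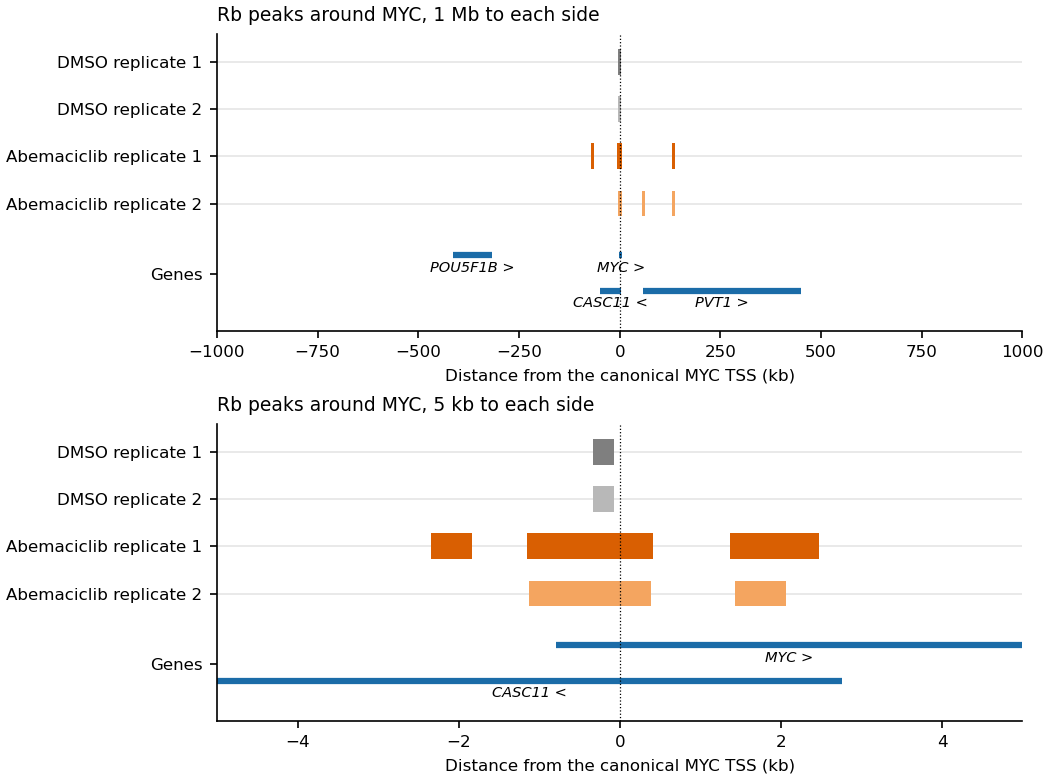
Rb peaks (bars) of each library against distance from the canonical MYC TSS in kb, for 1 Mb to each side (top, bars drawn at a least width so that they can be seen) and 5 kb to each side (bottom, to scale), with selected genes below and their direction marked by > or <. Each DMSO library has 1 peak, at the MYC promoter; the abemaciclib libraries have 5 and 4, with the gained ones in MYC intron 1 and in PVT1, 134 kb downstream.

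PVT1, whose RNA is made from the DNA next to MYC, had no region in both abemaciclib libraries at its promoter. A peak of abemaciclib replicate 2 lay 438 bp downstream of its TSS, in intron 1, with a fold of 5.06, a −log10 p of 6.84, rank 10638 and a height of 15.3. The same peak overlapped the promoter window of the miRNA gene MIR1204, and abemaciclib replicate 1 had none there.

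Within the PVT1 body a gained region at chr8:127870142-127870863, in intron 2, lay 76.0 kb from the PVT1 TSS. It had folds of 12.3 and 8.99, −log10 p of 23.2 and 15.4 and ranks of 6409 and 6871 in abemaciclib replicates 1 and 2. Its heights of 30.5 and 28.8 were above those at MYC intron 1 and close to 32.1, the median of 7828 gained promoter regions. The 200 bp around its summits had a GC content of 49.5% and 47.5% and an observed over expected CpG ratio of 0.0817 and 0.178, so unlike the summits at MYC, where this ratio lay between 0.560 and 0.906 in the shared and the intronic region, it sat in CpG-poor DNA.

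The paralogues MYCN and MYCL, which replace MYC in neural and some lung tumours, were both in the gained class but differed in size. At MYCN, on chromosome 2, the region spanned chr2:15940109-15940671 with summits 314 and 263 bp upstream of the TSS. The folds were 4.95 and 5.24, the −log10 p 6.67 and 7.14 and the ranks 11910 and 10256 in abemaciclib replicates 1 and 2. The heights of 12.2 and 15.3 were near the least height called, and 4.18% of gained promoter regions were lower.

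At MYCL, on chromosome 1, the region spanned chr1:39901648-39902431 with summits 274 and 286 bp upstream of the TSS. The folds were 15.5 and 14.0, the −log10 p 34.4 and 27.1 and the ranks 4770 and 4567. The heights of 45.7 and 42.2 gave a mean of 43.98 ± 2.50 (SD, n = 2), above 69.3% of gained promoter regions and above both MYCN values. A second MYCL peak in abemaciclib replicate 1 had its summit 530 bp downstream, in coding exon 1, and began just outside the promoter window. It had a fold of 3.85 and rank 13480.

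MAX, the obligate partner of MYC, had peaks in abemaciclib replicate 1 alone. One spanned chr14:65102197-65102607 with its summit 207 bp downstream of the TSS, in exon 1, a fold of 8.69, a −log10 p of 14.5, rank 8399 and a height of 21.3. The other spanned chr14:65102812-65103077 with its summit 398 bp upstream, a fold of 6.04, rank 10596 and a height of 13.7. A further peak with MAX as its nearest protein-coding gene lay 125 kb upstream at rank 12579. In abemaciclib replicate 2, where the least height called was 9.59, MAX had none. The sequence under the upstream summit is printed here because it holds the E-box letters CACGTG that MAX dimers recognise. It runs 5′ to 3′ on the gene's strand from 497 bp upstream of the TSS, at chr14:65102815-65103014 of GRCh38, with the E-box, 349 bp upstream, in capitals:
MAX: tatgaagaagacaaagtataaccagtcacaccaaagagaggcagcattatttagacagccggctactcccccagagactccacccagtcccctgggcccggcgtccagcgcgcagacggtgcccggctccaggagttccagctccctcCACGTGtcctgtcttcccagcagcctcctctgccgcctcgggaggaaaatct

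Of the MXD repressors, MXD3 and MXD4 had a promoter peak in both DMSO libraries and MXD1 had none. Peaks below the least height called are not listed, so Rb may also have been present at MXD1 in DMSO. MXD3 is the member found in proliferating cells, whereas MXD1 and MXD4 are linked to differentiation and arrest. At MXD3 the shared region spanned chr5:177311076-177313069. The summits lay 31 and 210 bp upstream of the canonical TSS in DMSO and 367 and 263 bp upstream after abemaciclib. The fold was 5.25 at rank 1008 in DMSO replicate 1 and 13.2 at rank 175 in DMSO replicate 2, with −log10 p of 7.35 and 25.7. It was 68.9 at rank 366 and 54.8 at rank 417 in abemaciclib replicates 1 and 2, with −log10 p of 211 and 151, the strongest peaks of any member in both lists.

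The MXD3 heights were 13.9 and 32.5 in DMSO and 177 and 161 after abemaciclib. The DMSO replicates thus differed from each other more than the abemaciclib ones in proportion. The means of 23.2 ± 13.2 and 169 ± 11.1 (SD, n = 2 each) gave a ratio of 7.29, above 49.5% of shared promoter regions. Without DMSO replicate 2 the ratio was 12.2. A gained region in the MXD3 body, chr5:177303363-177304636, had heights of 47.3 and 67.1. It overlapped the promoters of the neighbouring genes PRELID1 and RAB24 and cannot be assigned to MXD3.

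At MXD4 the shared region spanned chr4:2261272-2262838, with summits 130 and 199 bp upstream of the TSS in DMSO and 173 and 158 bp upstream after abemaciclib. In DMSO replicate 1 the peak had a fold of 4.12, a q-value of 0.0396, close to the threshold of 0.05, and rank 1413 of 1438. In DMSO replicate 2 it had a fold of 12.7 and rank 172. After abemaciclib the folds were 50.7 and 42.0 and the ranks 655 and 699. The class of MXD4 thus rests on a peak near the bottom of the DMSO replicate 1 list.

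The MXD4 heights were 10.8 and 35.5 in DMSO and 148 and 138 after abemaciclib. The means of 23.1 ± 17.4 and 143 ± 6.92 (SD, n = 2 each) gave a ratio of 6.19, above 28.9% of shared promoter regions, and 13.3 without DMSO replicate 2. After abemaciclib the peaks were 1523 and 1299 bp wide, against 162 and 289 bp in DMSO. In both DMSO libraries MYC had the tallest peak of the 3, and in both abemaciclib libraries MXD3 did. In DMSO replicate 2 MYC and MXD4 hardly differed, with implied pileups of 25 and 24.

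The sequences of these promoters are shown because MXD3 and MXD4 hold both E2F letters and an E-box under their Rb peaks. Each runs 5′ to 3′ on the gene's strand, in GRCh38, and capitals mark the motif letters searched on both strands. For E2F these were TTCCCGC along with TTGGCGC, and likewise TTCGCGC as well as TTGCCGC. The E-box was CACGTG, the NFY letters were CCAAT and the CHR element was TTTGAA, and no pattern contains another. The first is the 150 bp just upstream of the canonical MXD3 TSS (chr5:177311899-177312048), with an E2F match starting 70 bp upstream. MXD3 is annotated up to 177312757, so this stretch and the summits lie downstream of its most upstream start. The next is the MXD3 summit window of abemaciclib replicate 1 (chr5:177312165-177312364), with an E-box 383 bp upstream followed by CCAAT. The last is the MXD4 summit window (chr4:2262182-2262381), with an E-box 238 bp upstream, an NFY match on the other strand and an E2F match, also on the other strand, 86 bp upstream:
MXD3 upstream: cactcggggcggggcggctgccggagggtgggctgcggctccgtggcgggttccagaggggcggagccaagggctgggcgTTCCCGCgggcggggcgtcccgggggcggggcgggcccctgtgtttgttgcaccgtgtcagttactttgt
MXD3 summit: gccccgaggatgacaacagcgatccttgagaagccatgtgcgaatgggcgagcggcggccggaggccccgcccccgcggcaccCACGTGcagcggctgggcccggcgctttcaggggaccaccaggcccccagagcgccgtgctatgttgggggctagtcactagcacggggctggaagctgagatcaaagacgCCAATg
MXD4 summit: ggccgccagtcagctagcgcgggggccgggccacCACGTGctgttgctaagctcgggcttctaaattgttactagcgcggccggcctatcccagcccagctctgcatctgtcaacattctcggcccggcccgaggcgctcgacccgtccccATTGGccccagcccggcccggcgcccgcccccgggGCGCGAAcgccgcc

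MXD1 was in the gained class. Its region spanned chr2:69914126-69915532, with the summit 66 bp downstream of the TSS in abemaciclib replicate 1, in the 5′ untranslated part of exon 1, and 290 bp upstream in abemaciclib replicate 2. The folds were 10.3 and 12.5, the −log10 p 17.9 and 22.7 and the ranks 7421 and 5222. The heights of 24.4 and 34.5 gave a mean of 29.5 ± 7.17 (SD, n = 2), near the median of gained promoter regions. The window under the summit of abemaciclib replicate 2 held 3 NFY matches.

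MNT, the most widely expressed of the MAX-partner repressors, had 3 gained regions. The one at the canonical promoter spanned chr17:2400705-2402283, with summits 807 and 810 bp upstream of the TSS, folds of 21.7 and 13.8, −log10 p of 48.4 and 25.9 and ranks of 3502 and 4710. Its heights were 53.4 and 38.4, the tallest of the gained members in abemaciclib replicate 1 and below MYCL in abemaciclib replicate 2. A region in intron 4 (chr17:2392451-2394356), by the start of a shorter MNT transcript, was as tall, at 47.3 and 42.2, and wider than 96.9% of gained promoter regions. The region in intron 1 (chr17:2399117-2400043), was weaker, with folds of 6.52 and 3.69, and its peak in abemaciclib replicate 2 had a q-value of 0.0105. The summits at the canonical promoter lay farther upstream of the TSS than those of the best promoter peak of any other member.

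MGA, the largest MAX partner, had the narrowest of the members' gained regions. It spanned chr15:41660429-41660697, at the start of intron 1, with summits 166 and 129 bp downstream of the TSS. The folds were 4.26 and 5.24, the −log10 p 6.30 and 7.87 and the ranks 12252 and 10034. The heights of 16.8 and 21.1 were above 17.8% of gained promoter regions, and its width of 269 bp was above 1.09% of them. The 2 sequences below set the weak MGA region against the strong MNT one, on each gene's strand: the intronic part of the MGA window (chr15:41660526-41660670), with an NFY match and 2 CHR matches in capitals, and the MNT window of abemaciclib replicate 1 (chr17:2401767-2401966), which holds none of the letters searched:
MGA: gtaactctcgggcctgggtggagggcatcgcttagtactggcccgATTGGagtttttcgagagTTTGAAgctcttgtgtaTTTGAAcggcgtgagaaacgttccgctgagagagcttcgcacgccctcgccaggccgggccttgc
MNT: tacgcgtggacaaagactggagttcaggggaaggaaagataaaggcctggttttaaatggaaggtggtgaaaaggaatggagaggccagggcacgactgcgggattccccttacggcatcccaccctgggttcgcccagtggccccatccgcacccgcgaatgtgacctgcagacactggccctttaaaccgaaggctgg

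**Figure D3:**
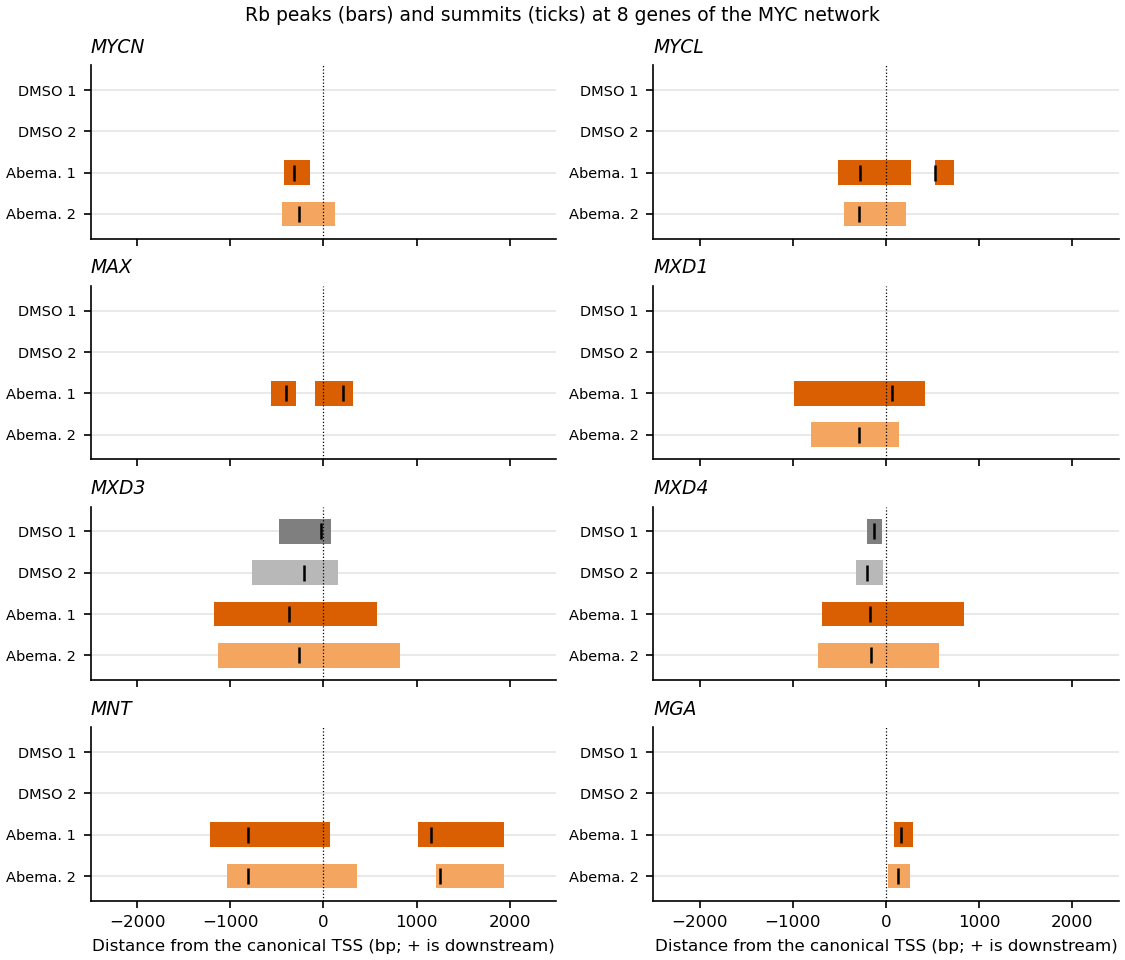
Rb peaks (bars) and their summits (ticks) around the canonical TSS of 8 genes, 1 row per library, with downstream to the right. Only MXD3 and MXD4 have DMSO bars, and these lie inside the wider abemaciclib bars; MAX has bars in abemaciclib replicate 1 alone, and the MGA bars are the narrowest gained pair.

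E2F letters near the TSS were looked for in all protein-coding members. In the 100 bp upstream of the canonical TSS, a match was present at MYC, MXD3 and MXD4 and at none of the other 6 protein-coding members. Over all protein-coding genes this stretch held a match in 15.9% of the 1297 genes with a shared promoter region, 7.75% of the 7873 with a gained and no shared region, 3.21% of the 8133 without a promoter peak and 6.56% of all 19970. At MYC the match started 64 bp upstream of the TSS and lay within 500-bp windows around the summits of all 4 libraries. The MXD4 match was likewise in all 4 windows, whereas the MXD3 match was outside that of abemaciclib replicate 1. That MXD3 window held another match, 549 bp upstream of the TSS. Such windows held E2F letters at 56.1% and 51.3% of all DMSO summits and 37.9% and 39.2% of all abemaciclib summits, so a match in them is common. Gained members had them too: MYCN held 3 matches, 175, 172 and 161 bp upstream of its TSS and so outside the 100 bp, and MGA held 1, 278 bp downstream. Windows of MAX in abemaciclib replicate 1 and of MNT intron 4 in abemaciclib replicate 2 also held 1. The window of the MYC peak with its summit 2224 bp upstream held 1 as well, 1999 bp upstream of the canonical TSS. In RefSeq promoter sequences, 250 bp before to 50 bp after a start, MYCN held 3 matches, MXD4 held 1 and MXD3 held 0. Those of MYCL, MAX, MXD1, MNT and MGA also held 0, and MYC was not covered. The MXD3 sequence there, chr5:177312703-177313002, lies upstream of the canonical TSS, by another annotated start. The MGA sequence there, chr15:41620974-41621273, lies far upstream of the canonical TSS and of the Rb region, where no library had an Rb peak. Which members hold a match thus depended on the start and the window used. The 100-bp stretch and the wider windows were examined after the 200-bp summit windows had been seen. A match is a description of letters, not of E2F binding.

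In 200-bp windows centred on all summits, E2F letters were found in 29.3% and 25.4% of DMSO windows and in 16.9% and 17.4% of abemaciclib windows in replicates 1 and 2. The E-box was found in 4.90% and 5.56% in DMSO and 4.66% and 4.78% after abemaciclib, and among 35116 RefSeq promoter sequences (GRCh38, 250 bp before to 50 bp after each start) in 7.26%. Among the members, an E-box was in the 200-bp windows of MXD3 in 1 of 4 libraries, of MXD4 in 3 of 4, of MNT intron 1 in 1 of 2 and of the upstream MAX peak. MXD1 and MGA had none in any window. The MYCN window of abemaciclib replicate 2 held 2 E2F matches. The promoter summit windows of MYC, MYCL and MXD1 held no E-box and no E2F letters.

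The genes whose promoter peaks resembled the MYC peak most were found by the distance between rank fractions, the rank divided by the length of the list, over the 4 Rb libraries. They were BTG1 at a distance of 0.0321, DHTKD1 at 0.0343, LMF2 and NCAPH2, which share a promoter, at 0.0376, and MAMDC4 at 0.0402. All of them were in the shared class, which follows from the choice, as a small distance to MYC requires a promoter peak in all 4 libraries. BTG1, an antiproliferative factor, ranked 271 and 187 in DMSO and 516 and 817 after abemaciclib. NCAPH2, a condensin II subunit, ranked 216 and 180 in DMSO and 559 and 647 after abemaciclib.

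Gene lists around MYC were counted in the same way. Each gene was called shared if it had a shared promoter region, gained if it had a gained and no shared one, and otherwise of another pattern or without a promoter peak. All protein-coding genes divided into 6.49% shared, 39.4% gained, 13.4% other and 40.7% without a peak. Of 4 further heterodimer partners, MXI1, MLXIP and MLXIPL were gained and MLX had another pattern. MXI1, the remaining member of the MXD family, ranked 3738 and 3377 after abemaciclib with heights of 56.4 and 57.6, taller than at MXD1 in each library.

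The next lists hold the corepressors. Of 10 genes for the Polycomb complex that contains MAX and MGA, 6 were gained and 0 shared, with all 10 holding a promoter peak in at least 1 library. E2F6, the E2F of this complex, had heights of 61.0 and 48.0 after abemaciclib, and WDR5 had 56.4 and 53.7. Of 12 genes of the SIN3 corepressor, used by the MXD proteins and MNT, 3 were shared (SIN3A, ING1, ING2), 3 were gained (HDAC2, SAP30, RBBP7), 4 had another pattern and SIN3B and SUDS3 had no promoter peak. ING2, a histone-reading subunit, ranked 515 and 244 in DMSO and 131 and 127 after abemaciclib, where its heights of 261 and 278 were above those at MXD3.

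Of 15 MYC coactivator genes, 1 was shared and 11 were gained. The shared one was ACTL6A, a subunit of chromatin-remodelling and acetyltransferase complexes, at heights of 27.7 and 29.5 in DMSO and 242 and 224 after abemaciclib. SMARCB1, of the SWI/SNF complex, had 122 and 119 after abemaciclib. RUVBL1, a helicase of the acetyltransferase complexes, had a gained region with heights of 100.6 and 80.6, beside a separate peak of DMSO replicate 2 at rank 1891.

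Of 15 genes for the turnover of MYC protein, 4 were shared, among them SKP2, AURKA and AXIN1, and 10 were gained. AXIN1, a scaffold for MYC phosphorylation, ranked 298 and 390 in DMSO and 144 and 159 after abemaciclib. STUB1, a ubiquitin ligase, was the gained gene with the best ranks, 758 and 602. FBXW7, the best known MYC ubiquitin ligase, had another pattern.

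Of 12 regulators of MYC transcription, 3 were shared (E2F1, CTCF, HNRNPK) and 6 gained, and ESR1, the oestrogen receptor gene, had no promoter peak. E2F1 had heights of 37.0 and 47.3 in DMSO, above MYC in both libraries, and 221 and 211 after abemaciclib. CTCF had 29.3 and 38.4 in DMSO and 224 and 242 after abemaciclib.

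Of 24 classical MYC targets, 5 were shared (LDHA, CDK4, NOP16, PA2G4, GNL3), 11 gained, 6 of another pattern and 2, ODC1 and TERT, without a promoter peak. NOP16, a nucleolar protein of ribosome assembly, had heights of 16.9 and 16.2 in DMSO and 169 and 213 after abemaciclib. FBL, which methylates ribosomal RNA, was gained with 89.97 and 59.5, and NCL with 83.9 and 65.2. In each list the share of genes without a promoter peak was lower than among all protein-coding genes. The lists were chosen for function with earlier results of these data known, and their counts were not tested.

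**Figure D4:**
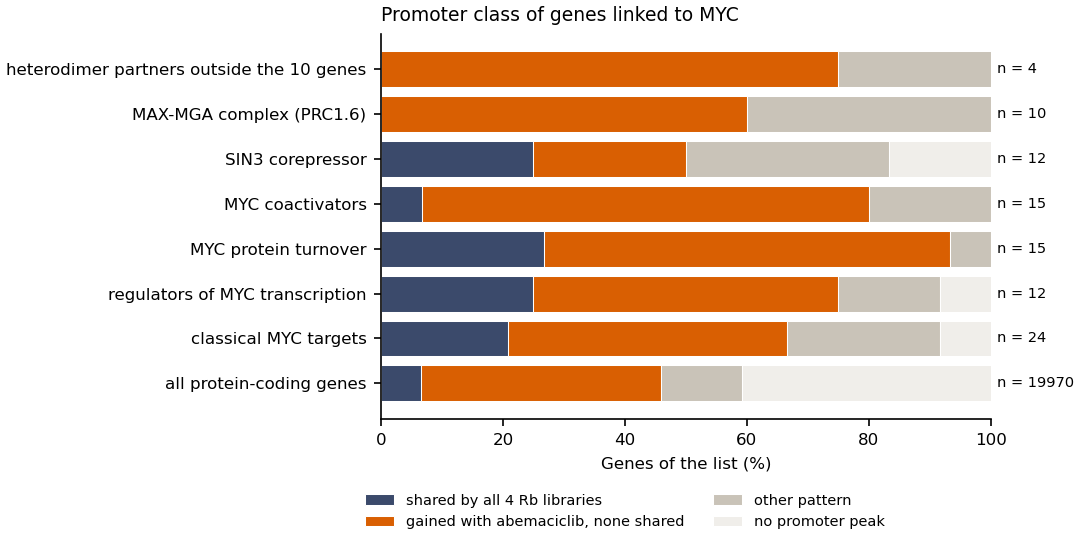
Share of genes (%) in each promoter class for 7 gene lists linked to MYC and for all protein-coding genes, with the number of genes at the right. The segment without a promoter peak is 40.7% of all protein-coding genes and at most 16.7% of any list, while the shared segment is absent from the first 2 lists.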

How the data were processed

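Rb CUT&RUN peak lists of 4 ZR-75-1 libraries and 1 IgG2a list were used. The authors trimmed paired-end reads, aligned them to GRCh38 (Bowtie2 2.3.4.1 per the submitters' processing notes, which also name deepTools 3.5.0 and DiffBind), dropped mitochondrial and blacklisted reads, and called peaks per library with MACS2 2.2.7.1 at a q-value of 0.05, with IgG as control for Rb. The deposited lists give a fold enrichment (a ratio of pileup plus 1 to local background plus 1), a −log10 p and −log10 q, an integer score that the authors' peak caller derived from the q-value, and summit offsets. The number of reads was not given in the lists.

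Whole-number pileups were solved from fold and p (tolerance 0.002; 98.5% to 99.8% of peaks), and the procedure was tested on simulated data. The simulation did not cover the lowest pileups called here, such as the 7 at MXD4 in DMSO replicate 1. The lowest recurrent background was taken as the genome mean over 2.7 Gb, which is an assumption, and no spike-in scaling was applied here. Peaks sharing at least 1 bp were merged. Promoters and TSS followed GENCODE 44. Coordinates count from 1. Promoter sequences from RefSeq matched 8 of the 10 members. Groups and replicate numbers came from the sample titles. The members and gene lists were chosen with earlier results of these data known. All 10 genes were named, with up to 4 examples per list: the 2 shared and 2 gained genes with the best mean rank over both abemaciclib libraries. One such example is not reported here. Python 3.11.15, numpy 2.4.6 and matplotlib 3.10.9 were used. Alternatives covered q-value limits, list size, windows and each library left out.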

Additional observations from a re-analysis of the deposited data

How the results depend on the processing

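The promoter classes followed each list's own threshold. With a stricter q-value limit of 0.01, the number of members with a promoter peak differed between abemaciclib and DMSO by 6.5 on average, against 6 as reported, because MXD4 lost its peak in DMSO replicate 1. With a limit of 1e-05, 4 members had a gained promoter region, against 6 as reported, and 1 member stayed shared (MYC). At this limit the mean difference in members was 5, and the mean difference in peaks within 1 Mb of MYC was 2, against 3.5. Counting the canonical TSS only gave 5 members with a gained promoter region. With each list limited to its best 1438 peaks, the members with a gained promoter region, the difference in members, the gained regions near MYC and the difference in peaks there were all 0, and 3 members stayed shared. Leaving out each library in turn gave 6 to 7 gained members, 3 shared members, a difference of 6, 2 to 4 gained regions within 1 Mb of MYC (4 without Abemaciclib replicate 2) and a difference of 3 to 4 peaks. A window of 2 Mb gave a difference of 6 peaks. Over 63 alternatives of these 5 counts, 53 stayed within the replicate spread or 1.5 times the count, 10 moved and 0 reversed. Among them only the differences between abemaciclib and DMSO could reverse, since the other counts cannot change sign. The height ratios of MXD3 and MXD4 moved to 12.2 and 13.3 without DMSO replicate 2, and the other 19 of 21 height alternatives moved less than the spread. That spread was the SD of the ratios between single libraries, 0.929 for MYC, 4.07 for MXD3 and 5.35 for MXD4. These ratios share libraries and are not independent. The spread was wide beside the MXD3 and MXD4 ratios of 7.29 and 6.19. The height alternatives and a common −log10 p minimum of 5.10 in all Rb lists, which changed none of these counts, were chosen after seeing the data. With the replicate block, taken as the mean of the ratios within equal replicate numbers, the height ratios were 4.51 for MYC, 8.86 for MXD3 and 8.81 for MXD4; the numbers are not stated to pair the libraries. Peaks below a library's least height are not in its list, so a gained region need not have been empty in DMSO.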
